A study of Rattus norvegicus with 12 samples.

Results

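The comparison described here sets 4 untreated libraries of rat hepatic progenitor cells (HPCs) that carry a TNF receptor knockout label, 2 of them Tnfrsf1α-/- and 2 of them Tnfrsf1β-/-, against 2 untreated wild-type libraries. It uses 6 of the 12 libraries of the series. The other 6 are the same 3 genotypes after 1 hour of TNFα and enter only the estimate of the spread and the levels given beside some genes. The cells were labelled as coming from day 13.5 of gestation. Total RNA was extracted with Trizol, and libraries were built with an Illumina TruSeq RNA kit. The labels do not say how the receptor genes were disrupted, or whether a group is 1 clone, 1 culture or several animals. P-values below thus rest on how far these particular libraries differ from their partners, and part of that may be technical. Of 22384 lines with a gene symbol, 11860 had a mean of at least 1 FPKM (a fragment count scaled by transcript length and library total) over the 12 libraries and were tested.

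TNF signals through a pair of receptors. TNFR1, the product of Tnfrsf1a, is found on most cells and carries a death domain that recruits TRADD, RIPK1 and, through them, kinases that activate NF-kB and JNK or caspase-8. TNFR2, the product of Tnfrsf1b, lacks a death domain and works through TRAF proteins. The title of the series links TNFR2 and the RNA-binding protein hnRNPK to YAP, the transcriptional co-activator that Hippo pathway kinases hold in check, in HPCs, the fetal liver cells from which both hepatocytes and cholangiocytes descend.

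Values below are log2(FPKM + 1) unless another unit is named. Those of the knockouts are given in the order Tnfrsf1α-/- replicates 1 and 2, then Tnfrsf1β-/- replicates 1 and 2, and those of wild type in the order of replicates 1 and 2. A difference is the mean of the knockout libraries minus the mean of wild type on that scale, which understates the change of low genes, with its standard error after ±. Adjusted p-values are from limma with Benjamini-Hochberg adjustment over all 11860 lines, and rose, fell, higher and lower mean an adjusted p under 0.05. For each gene said to have risen or fallen the 4 knockout values lay on 1 side of both wild-type values, except where an overlap is stated. Levels of different genes are compared per length, as FPKM gives them.

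The untreated knockouts differed from wild type across much of the transcriptome, and the direction went with the level of the gene. In all, 4882 lines (41.2%) were higher and 2255 (19.0%) were lower, 60.2% in either direction. The 4 knockout values lay above both wild-type values in 6196 lines (52.2%) and below both in 3005 (25.3%). Among the 358 lines with a mean level over 8, 5.59% were higher and 70.4% lower, with a median difference of -1.50. Among the 4703 lines with a level of 2 to 4, 53.9% were higher and 9.38% lower, with a median of 0.92. The median over all tested lines was 0.49 and moved to 0.06 with median-ratio scaling and to 0.04 with quantile normalization. Under those scalings the higher and lower counts became 3624 (30.6%) and 3242 (27.3%), and 3637 (30.7%) and 3146 (26.5%). The share of calls that were higher went from 68.4% to 52.8% and 53.6%. A core of 2831 lines was higher and 1922 were lower under the deposited scale and both scalings. Without wild-type replicate 2, with the lone wild-type library assumed to vary like the other groups, 3131 lines were higher.

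**Figure D1:**
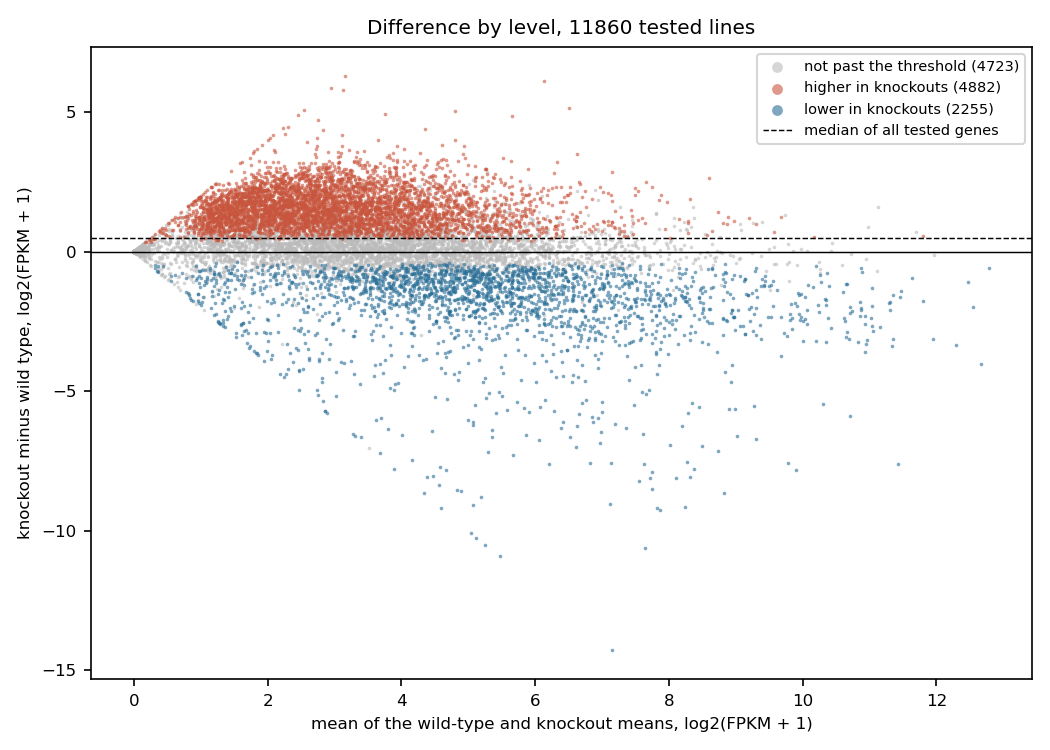
Difference between the knockouts and wild type (log2(FPKM + 1), y axis) against the mean of the 2 group means (x axis), 1 point per tested line, colored by call. The 4882 higher lines lie mostly at low and middle levels, and 252 of the 358 lines with a level over 8 were lower.

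The make-up of the libraries differed in the same way. FPKM summed to between 447554 and 472935 in the knockout libraries, to 1071530 and 1231671 in wild type and to between 1076956 and 2085916 in the treated libraries. The 10 highest lines held 7.77% to 8.03% of the total in the knockouts and 15.2% and 16.0% in wild type. Lines above a level of 11 numbered 8 to 10 in the knockouts and 94 and 125 in wild type. The part of this difference in make-up in any single result was not tested. Depth is unknown, because the file used here holds no counts. Within groups, the median absolute difference between replicates was 0.40 in wild type, 0.13 under the Tnfrsf1α-/- label and 0.07 under the Tnfrsf1β-/- label.

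Several defining hepatic markers were at or near 0 in the 6 untreated libraries. Alb, Afp, Hnf4a and Epcam were listed at 0 in each of them, and Krt19, Krt18 and Ttr at no more than 0.14. In the treated wild-type libraries, by contrast, Alb read 10.01 and 9.92 and Epcam 3.32 and 3.05, while in the treated knockouts they stood at no more than 0.27. Of 30 hepatocyte markers 21 were tested, 14 of them at or near 0 in all 6 untreated libraries, and 2 were higher and 1 lower. Of 26 hepatic progenitor and cholangiocyte markers 15 were tested, 9 of them at or near 0 in all 6, and 1 was higher and 3 lower. As shares this was 6.67% and 20%, beside 41.2% and 19.0% of all lines. Of 26 mesenchymal and stellate markers 13 were tested, and 3 were higher and 3 lower. Some were among the highest genes of the 6 libraries, with Sparc, a secreted matrix-binding glycoprotein, at 10.69 and 10.39 in wild type and 11.43, 11.47, 11.41 and 11.37 in the knockouts. It was not called (adjusted p = 0.18), and it was called higher after quantile normalization, by 2.84 (adjusted p = 0.0039), and in a fit of only the 6 untreated libraries (adjusted p = 0.0075). Vim, the intermediate filament vimentin, stood at 10.57 and 10.73 in wild type and 9.79, 9.89, 9.93 and 9.95 in the knockouts and was not called (adjusted p = 0.061). Its direction turned with the scaling: it was lower with median-ratio scaling, by -1.31 (adjusted p = 0.005), and in a fit of only the 6 untreated libraries (adjusted p = 0.0045), and higher after quantile normalization, by 1.15 (adjusted p = 0.0087). Few markers of other cell types could be tested: 4 of 18 endothelial markers, 2 of 21 macrophage and leukocyte markers, 2 of 20 erythroid markers and 5 of 22 muscle markers. Of the 4 endothelial markers 1 was higher and 1 lower, of the 2 leukocyte markers 0 were called, of the 2 erythroid markers 1 was higher, and of the 5 muscle markers 0 were higher and 3 lower with a median of -1.12. Tek, the angiopoietin receptor of endothelial cells, read 0.27 and 0.25 in wild type and 2.39, 2.34, 2.38 and 2.26 in the knockouts, a difference of 2.08 ± 0.14 (adjusted p = 1.3e-05). Egfl7, a secreted endothelial protein, read 3.63 and 3.14 in wild type and 1.53, 1.61, 1.55 and 1.44 in the knockouts, a difference of -1.85 ± 0.62 (adjusted p = 0.029). Egfl7 lost its call with each of the 6 untreated libraries left out in turn (adjusted p = 0.058 to 0.14), with differences of -1.61 to -2.09. Tnnt2, cardiac troponin T, read 3.40 and 3.92 in wild type and 0, 0.06, 0 and 0 in the knockouts, a difference of -3.64 ± 0.34 (adjusted p = 9.3e-05). In bulk RNA, fewer cells of a type and less RNA per cell cannot be told apart.

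Of the 15 tested progenitor and cholangiocyte markers 3 fell, and 1 rose, by 2.67. The 3 that fell are expressed in biliary or other epithelium. Krt7, a keratin of bile duct epithelium, read 13.80 and 13.50 in wild type and 7.75, 7.99, 7.67 and 7.64 in the knockouts, a difference of -5.88 ± 0.21 (adjusted p = 1.9e-07). Sox9, a transcription factor of biliary and progenitor cells, read 5.21 and 5.78 in wild type and 0.23, 0.31, 0.04 and 0.02 in the knockouts, a difference of -5.34 ± 0.23 (adjusted p = 5.4e-07). Cdh1, E-cadherin, read 3.24 and 3.92 in wild type and 0.02, 0, 0.05 and 0.02 in the knockouts, a difference of -3.56 ± 0.44 (adjusted p = 0.0003). For each, the 4 knockout libraries lay below both wild-type libraries, and the treated libraries ranged from 13.6 to 15.7 for Krt7.

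The RNA of the targeted receptors did not check the labels. Tnfrsf1a read 5.45 and 5.15 in wild type and 5.94, 6.13, 5.83 and 5.80 in the knockouts, a difference of 0.63 ± 0.16 (adjusted p = 0.0093), so the libraries labelled Tnfrsf1α-/- lay above wild type and not below it. The difference became 0.09 (adjusted p = 0.68) after median-ratio scaling and 0.48 (adjusted p = 0.075) without wild-type replicate 2. Tnfrsf1b was listed at 0 in both wild-type libraries, at 0.03 and 0 under the Tnfrsf1α-/- label and at 0 in both libraries labelled Tnfrsf1β-/-. A deletion can leave RNA from the rest of a gene, and the deposited values are per gene, so genotypes are named below as the labels give them.

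Intracellular components of TNF receptor signalling were mostly higher in the knockouts. Of 32 listed genes 30 were tested, and 19 were higher and 3 lower, with a median difference of 1.09 (14 against 7 with median-ratio scaling and 13 against 5 with quantile normalization). Beside the background of 41.2% higher and 19.0% lower lines, the shares were 63.3% and 10%. Among all lines with a level of 2 to 4 they were 53.9% and 9.38%. The median level of the list was 2.72 and 2.04 in wild type and 3.72 to 3.77 in the knockouts. Ripk1, the kinase that the TNFR1 complex recruits, read 2.10 and 1.84 in wild type and 3.89, 3.85, 3.79 and 3.79 in the knockouts, a difference of 1.86 ± 0.25 (adjusted p = 0.00044). Map3k7, the kinase TAK1 downstream of RIPK1, was listed at 0 in both wild-type libraries and at 3.76, 3.61, 3.67 and 3.71 in the knockouts (adjusted p = 0.00029). Birc2, the ubiquitin ligase cIAP1, rose by 1.35 ± 0.18 (adjusted p = 0.00044), Traf6, an adaptor and ubiquitin ligase, rose by 1.52 ± 0.22 (adjusted p = 0.00064) and Adam17, the protease that sheds TNF and its receptors, rose by 1.95 ± 0.20 (adjusted p = 0.00012). In these 5 genes both wild-type libraries lay below the 4 knockout libraries.

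A pair of components that act at the fork between survival and death went the other way. Cflar, cFLIP, which blocks caspase-8, read 8.78 and 8.66 in wild type and 4.87, 4.71, 4.57 and 4.55 in the knockouts, a difference of -4.05 ± 0.16 (adjusted p = 3.2e-07), and stood at 9.3 to 11.6 in the treated libraries. Tradd, the adaptor that binds the death domain of TNFR1, read 5.02 and 5.07 in wild type and 3.47, 3.61, 3.92 and 3.83 in the knockouts, a difference of -1.34 ± 0.35 (adjusted p = 0.01), or -1.31 (adjusted p = 0.066) without wild-type replicate 2. The knockouts lay below wild type in both genes. Tradd is named to complete the receptor complex.

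Genes of the NF-kB list were mostly higher. Of 28 listed genes 25 were tested, and 20 were higher and 1 lower, with a median difference of 1.49 (14 against 1 with median-ratio scaling and 17 against 1 with quantile normalization). As shares this was 80% and 4%, beside 41.2% and 19.0% of all lines. Lines with a level of 2 to 4 held 53.9% and 9.38%, and those with 4 to 6 held 30.4% and 28.5%. The list had a median level of 3.93 and 3.36 in wild type and 4.84 to 5.24 in the knockouts. The 5 subunit genes Rela, Relb, Rel, Nfkb1 and Nfkb2 were all higher on the deposited scale and 4 of 5 under each scaling. Nfkb1, which encodes p105 and p50, read 3.93 and 2.91 in wild type and 5.94, 5.97, 5.85 and 5.82 in the knockouts, a difference of 2.48 ± 0.32 (adjusted p = 0.00034). Rel, c-Rel, rose by 2.08 ± 0.41 (adjusted p = 0.0025) and Nfkb2, p100 and p52, by 1.56 ± 0.26 (adjusted p = 0.0013). Relb, the partner of p52, rose by 1.25 ± 0.21 (adjusted p = 0.0013), or 0.54 (adjusted p = 0.09) after quantile normalization. Rela, p65, differed by 0.61 ± 0.20 (adjusted p = 0.03), by 0.07 (adjusted p = 0.76) after median-ratio scaling and by 0.29 (adjusted p = 0.27) without wild-type replicate 2. Its call was also lost when any single knockout library was left out, with adjusted p-values of 0.057 to 0.078.

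Genes that limit NF-kB signalling were among those that rose. Tnfaip3, the deubiquitinase A20 that ends TNF signalling, read 2.42 and 1.01 in wild type and 4.84, 4.88, 5.26 and 5.23 in the knockouts, a difference of 3.34 ± 0.37 (adjusted p = 0.00018). Nfkbiz, the nuclear inhibitor protein IkB-zeta, read 2.91 and 1.55 in wild type and 5.41, 5.81, 5.43 and 5.41 in the knockouts, a difference of 3.28 ± 0.54 (adjusted p = 0.0011). Zc3h12a, the RNase regnase-1 that degrades cytokine messages, rose by 1.57 ± 0.20 (adjusted p = 0.00034), and Otud7b, a deubiquitinase of the NF-kB pathway, by 2.41 ± 0.40 (adjusted p = 0.0012). The groups did not overlap in any of the 4. Nfkbia, the classical inhibitor IkB-alpha, read 5.07 and 4.74 in wild type and 6.28, 6.43, 7.01 and 7.07 in the knockouts, a difference of 1.79 ± 0.44 (adjusted p = 0.0071), or 1.25 after median-ratio scaling, where the call was lost, and 1.63 (adjusted p = 0.065) without wild-type replicate 2. Nfkbib, IkB-beta, was the exception and fell, with 4.30 and 4.36 in wild type and 2.65, 3.11, 3.29 and 3.03 in the knockouts, a difference of -1.31 ± 0.34 (adjusted p = 0.0097), or -1.28 (adjusted p = 0.061) without wild-type replicate 2.

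The promoters of a few of these genes hold a match to the NF-kB motif, GGGA and TTTCC with any 1 base between them, searched on both strands in the 250 bases before the start of each gene. It occurred in 4 of 21 promoters of the NF-kB list and 2 of 12 of the chemokine and cytokine list, in 4 of 26 of the interferon-stimulated list and in 0 of 20 of the immediate early list, against 32 of 8067 promoters of tested genes (0.397%) and 77 of 24206 of all promoters (0.318%). It occurred in 0.511% of promoters of higher genes and 0.279% of those of lower genes. The 6 promoters of the first 2 lists with a match, shown because each belongs to a gene that was higher in the knockouts, are from RefSeq on build GRCr8, with the match in capitals, 5′ to 3′ on the strand of the gene. A match is a description of the letters and not a bound site.
Tnfaip3, chr1:15544012-15544071, minus strand: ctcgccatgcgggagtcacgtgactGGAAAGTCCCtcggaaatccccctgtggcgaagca
Nfkbia, chr6:78597073-78597128, minus strand: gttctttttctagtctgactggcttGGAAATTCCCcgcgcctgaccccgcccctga
Nfkbiz, chr11:58251683-58251720, plus strand: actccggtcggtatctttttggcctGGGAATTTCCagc
Nfkb2, chr1:255108329-255108373, plus strand: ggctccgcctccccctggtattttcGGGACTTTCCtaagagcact
Il6, chr4:5894609-5894668, minus strand: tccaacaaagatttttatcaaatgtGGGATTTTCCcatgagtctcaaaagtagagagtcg
Cxcl1, chr14:17479371-17479430, minus strand: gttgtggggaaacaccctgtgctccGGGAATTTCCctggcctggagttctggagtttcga

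Cytokines and chemokines were low or absent in many libraries, and 20 of 32 listed genes were tested. Of these, 11 were higher and 1 lower, with a median difference of 0.76 (7 against 2 with median-ratio scaling and 8 against 2 with quantile normalization). The shares were 55% and 5%, beside 41.2% and 19.0% of all lines and 53.9% and 9.38% of lines with a level of 2 to 4. The median level of the list was 2.32 and 2.27 in wild type and 3.59 to 3.75 in the knockouts. Csf3, granulocyte colony-stimulating factor, read 1.30 and 1.48 in wild type and 4.02, 4.03, 3.26 and 3.41 in the knockouts, a difference of 2.29 ± 0.37 (adjusted p = 0.00093). Cxcl1 and Cxcl2, neutrophil chemokines, rose by 1.24 ± 0.18 (adjusted p = 0.00063) and 2.19 ± 0.34 (adjusted p = 0.00084). Il6, the acute-phase cytokine, read 0.17 and 0 in wild type and 2.20, 2.52, 1.11 and 1.29 in the knockouts, a difference of 1.70 ± 0.23 (adjusted p = 0.00042). The knockout libraries lay above both wild-type libraries in these 4 genes. Between the labels Il6 differed by 1.16 (Tnfrsf1α-/- minus Tnfrsf1β-/-), which did not pass the test (adjusted p = 0.67). Lif, an IL-6 family cytokine, read 3.55 and 1.85 in wild type and 6.74, 6.77, 6.35 and 6.26 in the knockouts, a difference of 3.83 ± 1.06 (adjusted p = 0.013), or 2.98 (adjusted p = 0.13) without wild-type replicate 2.

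Interferon-stimulated genes were mostly higher, while 5 of the list fell. Of 35 listed genes 34 were tested, and 20 were higher and 5 lower, with a median difference of 1.01 (14 against 5 with median-ratio scaling and 24 against 3 with quantile normalization). As shares this was 58.8% and 14.7%, beside 41.2% and 19.0% of all lines. Lines with a level of 2 to 4 held 53.9% and 9.38%, and those with 4 to 6 held 30.4% and 28.5%. The list had a median level of 4.31 and 3.89 in wild type and 5.02 to 5.26 in the knockouts. Herc6, an interferon-induced ubiquitin ligase, read 1.15 and 0.74 in wild type and 4.24, 4.06, 4.03 and 4.15 in the knockouts, a difference of 3.18 ± 0.40 (adjusted p = 0.00033). Ifit2, which binds viral RNA, read 0.72 and 0.49 in wild type and 3.31, 3.11, 3.08 and 3.15 in the knockouts, a difference of 2.56 ± 0.28 (adjusted p = 0.00017). Stat2, a part of the interferon-activated transcription factor with IRF9, rose by 1.63 ± 0.20 (adjusted p = 0.0003). Levels of the 3 genes in the knockouts lay above those in wild type.

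Of the 5 that fell, 3 work in peptide supply to MHC class I, Tap2 and the immunoproteasome genes Psmb9 and Psmb10, and the other 2 were the interferon-induced Ifi27 and Isg15, both named after their values were seen. Antigen processing genes as a group were split. Of 8 tested, 3 were higher and 3 lower, with a median difference of 0.08 (0 against 3 with median-ratio scaling and 4 against 3 with quantile normalization). Both shares were 37.5%, beside 41.2% higher and 19.0% lower among all lines. Psmb9 differed by -0.69 ± 0.26 (adjusted p = 0.048), Ifi27 by -1.06 ± 0.22 (adjusted p = 0.0031) and Isg15 by -0.61 ± 0.23 (adjusted p = 0.049). After quantile normalization Ifi27 and Isg15 reversed and were higher, by 0.55 and 0.66. Psmb9 lost its call when any single library was left out, down to -0.52 (adjusted p = 0.26) without wild-type replicate 2, and Isg15 without any single knockout library and without wild-type replicate 2 (-0.27, adjusted p = 0.42). Tap2, a subunit of the peptide transporter, read 12.03 and 11.99 in wild type and 3.45, 3.50, 3.50 and 3.51 in the knockouts, a difference of -8.52 ± 0.13 (adjusted p = 2.4e-09), and 9.6 to 12.2 in the treated libraries. Tap1, its partner subunit, read 3.87 and 3.51 in wild type and 4.35, 4.39, 4.75 and 4.86 in the knockouts, a difference of 0.90 ± 0.17 (adjusted p = 0.0019) in the other direction, or 0.38 (adjusted p = 0.07) after median-ratio scaling. Psmb10, an immunoproteasome subunit, read 6.26 and 6.71 in wild type and 4.35, 4.58, 5.19 and 5.21 in the knockouts, a difference of -1.65 ± 0.20 (adjusted p = 0.00027). Tap1 is named to complete the transporter.

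The interferon-stimulated response element, searched as GAAA followed by GAAA with any 2 bases between them, on both strands of the same 250 bases, was present in 17 of 26 promoters of this list. It occurred in 218 of 8067 promoters of tested genes (2.70%) and in 803 of 24206 of all promoters (3.32%), and in 2.76% of those of higher and 2.65% of those of lower genes. It was thus found in members that rose and in members that fell. The promoters of 3 genes that rose and 2 that fell show this, again from RefSeq on GRCr8 with the match in capitals. Rsad2, viperin, differed by 3.68 ± 0.85 (adjusted p = 0.0054), or 3.39 (adjusted p = 0.053) without wild-type replicate 2, Ifih1, the RNA sensor MDA5, by 2.76 ± 0.59 (adjusted p = 0.0038) and Gbp2, a GTPase, by 2.35 ± 0.40 (adjusted p = 0.0013).
Rsad2, chr6:48788233-48788292, minus strand: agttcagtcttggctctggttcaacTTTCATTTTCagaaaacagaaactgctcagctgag
Ifih1, chr3:67683993-67684052, minus strand: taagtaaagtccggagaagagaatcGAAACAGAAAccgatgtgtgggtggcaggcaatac
Gbp2, chr2:234005671-234005726, plus strand: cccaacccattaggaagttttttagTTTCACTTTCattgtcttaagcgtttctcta
Tap2, chr20:4652303-4652362, minus strand: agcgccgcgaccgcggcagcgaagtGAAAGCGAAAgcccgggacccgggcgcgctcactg
Psmb10, chr19:50743331-50743390, minus strand: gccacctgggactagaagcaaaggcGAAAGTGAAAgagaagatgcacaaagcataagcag

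Immediate early genes, which growth factors, stress and cytokines switch on within minutes, held some of the largest differences. Of 31 listed genes 27 were tested, and 18 were higher and 3 lower, with a median difference of 1.95 (17 against 4 with median-ratio scaling and 17 against 1 with quantile normalization). As shares this was 66.7% and 11.1%, beside 41.2% and 19.0% of all lines. Lines with a level of 2 to 4 held 53.9% and 9.38%, and those with 4 to 6 held 30.4% and 28.5%. The list had a median level of 4.27 and 3.64 in wild type and 5.40 to 5.76 in the knockouts. Fos, a subunit of AP-1, read 0.33 and 0.16 in wild type and 5.92, 5.89, 6.15 and 6.12 in the knockouts, a difference of 5.77 ± 0.20 (adjusted p = 1.6e-07). Fosb, its paralogue, read 0.30 and 0 in wild type and 4.10, 4.05, 4.66 and 4.66 in the knockouts, a difference of 4.22 ± 0.27 (adjusted p = 1.1e-05). Both stood at no more than 1.4 in the treated libraries. Atf3, a stress-induced partner of AP-1 proteins, rose by 3.17 ± 0.70 (adjusted p = 0.0046), Jun by 2.35 ± 0.42 (adjusted p = 0.0015) and Junb by 1.95 ± 0.20 (adjusted p = 0.00014). The groups did not overlap for these 5 AP-1 genes. Jund, which is less inducible, differed by -0.53 ± 0.15 (adjusted p = 0.015), by 0.21 (adjusted p = 0.22) after quantile normalization and by -0.46 (adjusted p = 0.089) without wild-type replicate 2, and lost its call without Tnfrsf1β-/- replicate 1 (adjusted p = 0.052). Jun, Junb, Jund and Atf3 are named to complete the AP-1 family.

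Other immediate early genes followed. Btg2, an antiproliferative factor, read 2.80 and 2.83 in wild type and 5.55, 5.40, 6.37 and 6.40 in the knockouts, a difference of 3.11 ± 0.20 (adjusted p = 1.1e-05). Nr4a1, an orphan nuclear receptor, read 1.47 and 1.19 in wild type and 3.10, 3.28, 5.58 and 5.48 in the knockouts, a difference of 3.03 ± 0.29 (adjusted p = 9.8e-05), with the Tnfrsf1β-/- libraries above the Tnfrsf1α-/- libraries. Zfp36, the protein tristetraprolin that destabilises cytokine messages, read 4.27 and 3.49 in wild type and 5.93, 6.13, 7.29 and 7.38 in the knockouts, a difference of 2.80 ± 0.24 (adjusted p = 6.0e-05). Dusp5, a phosphatase of ERK, rose by 2.17 ± 0.19 (adjusted p = 6.4e-05). Egr1, singled out after its values were seen because it moved against the list, read 9.19 and 9.30 in wild type and 7.69, 7.70, 7.99 and 7.99 in the knockouts, a difference of -1.41 ± 0.21 (adjusted p = 0.00073), or 0.01 after quantile normalization. Egr2, its paralogue, read 0.08 and 0.04 in wild type and 2.14, 2.11, 2.84 and 2.87 in the knockouts, a difference of 2.43 ± 0.29 (adjusted p = 0.00026).

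**Figure D2:**
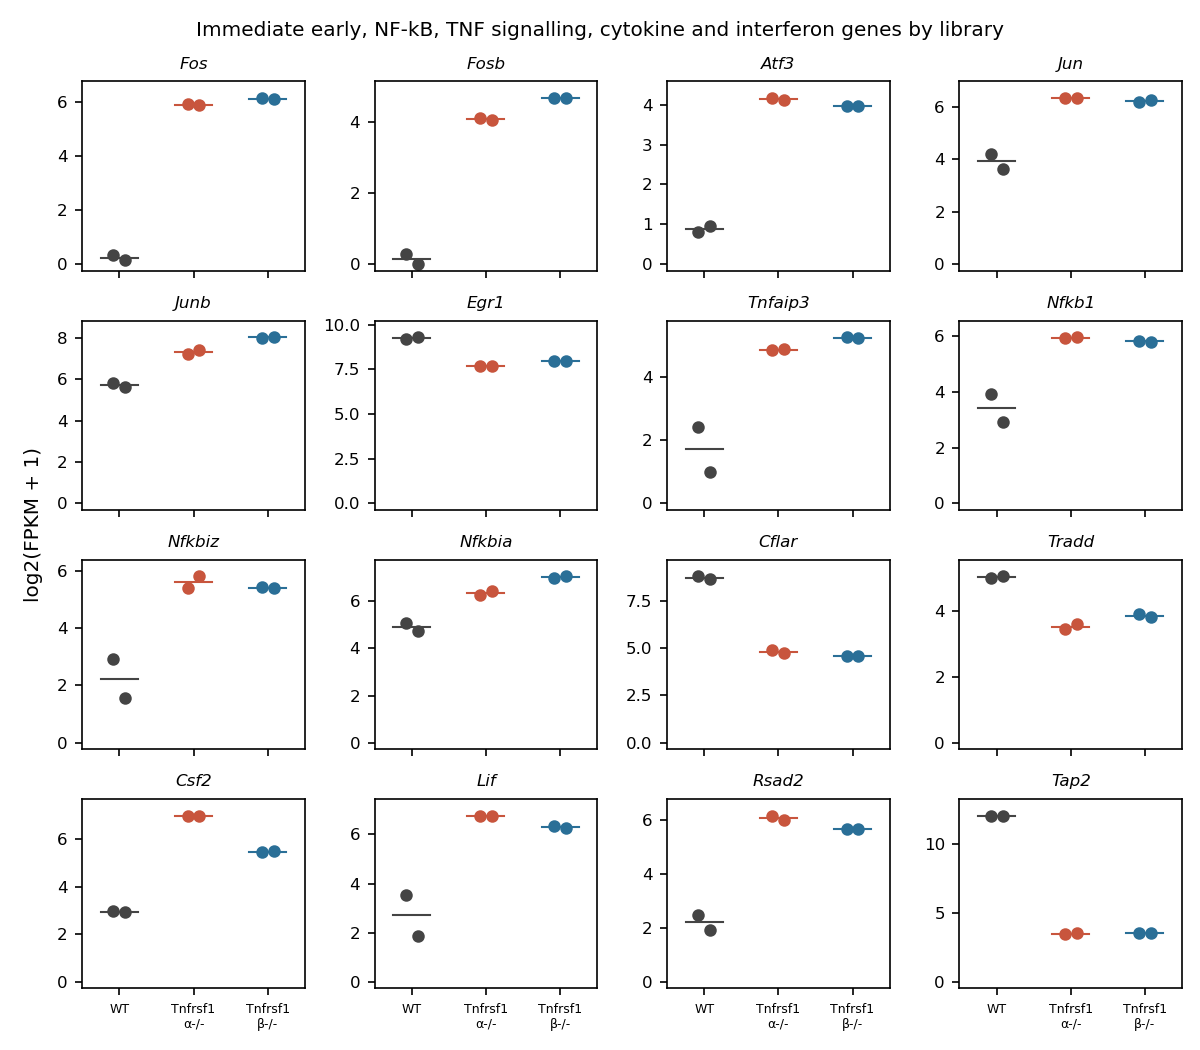
Levels (log2(FPKM + 1)) of 16 immediate early, NF-kB, TNF signalling, cytokine and interferon genes in the 6 untreated libraries. Points are libraries and lines are group means. The 2 wild-type libraries lie below the 4 knockout libraries in 12 panels and above them for Egr1, Cflar, Tradd and Tap2.

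Components of the Hippo pathway were higher in the knockouts on both sides of the kinase cascade. Of 26 listed genes 24 were tested, and 21 were higher and 0 lower, with a median difference of 1.85 (19 against 2 with median-ratio scaling and 18 against 3 with quantile normalization). The kinases, adaptors and upstream regulators accounted for 15 of the 21 and had a median of 1.90 over 17 tested genes. Shares of the whole list were 87.5% higher and 0% lower, beside 41.2% and 19.0% of all lines. Lines with a level of 2 to 4 held 53.9% and 9.38%, with a median difference of 0.92. The list had a median level of 3.46 and 2.38 in wild type and 4.47 to 4.70 in the knockouts. Yap1, the co-activator named in the title of the series, read 4.78 and 2.30 in wild type and 6.0, 6.13, 5.94 and 6.07 in the knockouts, a difference of 2.49 ± 0.57 (adjusted p = 0.0051). Wwtr1, the paralogous co-activator TAZ, read 4.61 and 4.13 in wild type and 5.47, 5.67, 5.81 and 5.83 in the knockouts, a difference of 1.33 ± 0.20 (adjusted p = 0.0007). The 2 wild-type values of Yap1 were 2.48 apart, more than those of any knockout pair, and lay below the 4 knockout values.

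Kinases that phosphorylate and restrain YAP moved in the same direction. Lats1, the kinase that phosphorylates YAP, read 1.61 and 0.78 in wild type and 3.93, 3.76, 3.78 and 3.80 in the knockouts, a difference of 2.62 ± 0.36 (adjusted p = 0.00045). Lats2, its paralogue, read 3.78 and 2.60 in wild type and 5.29, 5.31, 5.55 and 5.59 in the knockouts, a difference of 2.25 ± 0.57 (adjusted p = 0.009), or 1.66 (adjusted p = 0.10) without wild-type replicate 2. Stk3, the upstream kinase MST2, rose by 1.90 ± 0.26 (adjusted p = 0.00044), Taok1, which activates MST kinases, by 3.35 ± 0.41 (adjusted p = 0.00028), Map4k4, which can act in parallel to them, by 2.52 ± 0.36 (adjusted p = 0.00058) and Mob1b, the LATS co-activator, by 2.74 ± 0.37 (adjusted p = 0.00043). No listed component was lower, although median-ratio scaling gave 2 lower components and quantile normalization 3.

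Targets of YAP and TAZ changed in both directions, in shares close to those of all lines. Of 29 listed genes 26 were tested, and 11 were higher and 5 lower, with a median difference of 0.73 (8 against 9 with median-ratio scaling and 12 against 8 with quantile normalization). Amotl2, a junctional protein that binds YAP, read 6.03 and 5.35 in wild type and 7.03, 7.09, 7.25 and 7.26 in the knockouts, a difference of 1.47 ± 0.20 (adjusted p = 0.0004). Myof, a membrane repair protein, rose by 2.27 ± 0.44 (adjusted p = 0.0022). Crim1, a transmembrane binder of BMPs, fell by 3.29 (adjusted p = 1.0e-05), and Nt5e, the ectonucleotidase CD73, read 9.20 and 9.16 in wild type and 0.70, 0.56, 0.49 and 0.68 in the knockouts, a difference of -8.57 ± 0.15 (adjusted p = 2.5e-09). Ctgf, among the most used reporters of YAP activity, read 8.08 and 7.63 in wild type and 8.17, 8.17, 8.19 and 8.24 in the knockouts and was not called (adjusted p = 0.24), although it was after quantile normalization, at 1.70. Cyr61, the other common reporter, was listed at 0 in wild-type replicate 1 and at 7.85 in replicate 2, and read 8.72, 8.86, 9.42 and 9.36 in the knockouts (adjusted p = 0.037). Without wild-type replicate 1 its difference was 1.24 (adjusted p = 0.38), and the call was also lost after median-ratio scaling and when any single knockout library was left out. Ankrd1, another reporter, read 3.98 and 2.36 in wild type and 1.62, 1.65, 2.69 and 2.43 in the knockouts, a difference of -1.08 ± 0.37 (adjusted p = 0.033), or -0.27 (adjusted p = 0.26) without wild-type replicate 1. Its groups overlapped, and its call was also lost without any single knockout library. Ctgf and Ankrd1 were named after their values were seen.

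Hnrnpk, the RNA-binding protein of the series title, was not called in the pooled comparison. It read 7.24 and 6.55 in wild type and 8.03, 7.84, 6.72 and 6.77 in the knockouts, a difference of 0.44 ± 0.54 (adjusted p = 0.51). The Tnfrsf1α-/- libraries lay above both wild-type libraries, and the Tnfrsf1β-/- libraries lay between them. Its difference was -0.10 after median-ratio scaling and -0.15 for the Tnfrsf1β-/- label alone, and 1.51 (adjusted p = 0.059) after quantile normalization, none past the threshold. Across 49 listed splicing and hnRNP genes, 48 lines were tested and 25 were higher and 4 lower, with a median difference of 0.76 (19 against 10 with median-ratio scaling and 34 against 2 with quantile normalization). As shares this was 52.1% and 8.33%, beside 41.2% and 19.0% of all lines. Lines with a level of 4 to 6 held 30.4% and 28.5%, and those with 6 to 8 held 12.7% and 53.3%. The list had a median level of 5.78 and 5.39 in wild type and 6.26 to 6.43 in the knockouts. Among 20 lines of hnRNP genes 15 were higher and 1 lower, the latter being Hnrnpc at 6.45 and 6.74 in wild type and 6.11, 5.95, 5.50 and 5.56 in the knockouts. Hnrnpa2b1, an abundant hnRNP of splicing and RNA transport, rose by 1.41 ± 0.22 (adjusted p = 0.00083), Sf3b1, the core of the U2 branch point complex, by 2.44 ± 0.30 (adjusted p = 0.00028) and Ptbp2, a splicing repressor best known from neurons, by 2.54 ± 0.26 (adjusted p = 0.00014).

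Cytosolic ribosomal protein genes, whose products build the ribosome, were lower almost throughout. Of 79 cytosolic ribosomal protein genes 77 were in the table, on 87 tested lines, and 0 were higher and 85 lower, with a median difference of -2.21 (0 against 86 with median-ratio scaling and 14 against 44 with quantile normalization). The large subunit counted 51 of 53 lines and the small subunit 32 of 32. Shares of the whole list were 0% higher and 97.7% lower, beside 41.2% and 19.0% of all lines. Lines with a level over 8 held 5.59% and 70.4%, with a median difference of -1.50. The list had a median level of 10.55 and 11.19 in wild type and 8.74 to 9.01 in the knockouts. Rps25 read 11.48 and 12.12 in wild type and 8.79, 8.46, 8.54 and 8.61 in the knockouts, a difference of -3.20 ± 0.26 (adjusted p = 4.6e-05). Rpl26 read 10.75 and 11.10 in wild type and 8.94, 9.10, 8.42 and 8.36 in the knockouts, a difference of -2.22 ± 0.18 (adjusted p = 4.9e-05). Ribosomal protein lines together held 9.26% to 10.7% of all FPKM in the knockouts and 16.3% and 22.9% in wild type. Ribosomal proteins have many near-identical pseudogene copies, so their values are uncertain where reads could be split between copies. The elongation factor Eef1a1, not in the list and among the 10 highest genes of the knockouts, read 11.63 and 11.40 in wild type and 12.08, 12.27, 12.02 and 11.96 in the knockouts, a difference of 0.56 ± 0.19 (adjusted p = 0.028), or 0.01 after median-ratio scaling. It lost its call without wild-type replicate 2 (0.45, adjusted p = 0.16) and without 3 of the 4 knockout libraries in turn.

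The nuclear-encoded respiratory chain was mostly lower. Of 92 listed genes 77 were in the table, on 80 tested lines, and 2 were higher and 74 lower, with a median difference of -2.04 (0 against 77 with median-ratio scaling and 4 against 67 with quantile normalization). As shares this was 2.5% and 92.5%, beside 41.2% and 19.0% of all lines. Lines with a level of 6 to 8 held 12.7% and 53.3%, with a median difference of -0.76. The list had a median level of 7.67 and 8.15 in wild type and 5.88 to 5.94 in the knockouts. By complex, 35 of 38 lines of complex I, 3 of 4 of complex II, 9 of 10 of complex III, 12 of 12 of cytochrome c oxidase and 14 of 15 of ATP synthase were lower. Complex II also held 1 higher line and had a median of -0.96. Ndufa3, an accessory subunit of complex I, read 8.11 and 8.86 in wild type and 4.74, 5.21, 5.28 and 5.01 in the knockouts, a difference of -3.42 ± 0.25 (adjusted p = 2.7e-05). Cox7b, a subunit of cytochrome c oxidase, read 9.20 and 9.12 in wild type and 7.01, 6.96, 6.97 and 6.85 in the knockouts, a difference of -2.22 ± 0.15 (adjusted p = 1.4e-05). The mitochondrially encoded genes, which make the catalytic core of the same complexes, did not share this: of 12 tested, 0 were higher and 4 lower with a median of -0.34, against 0 and 7 with median-ratio scaling and 10 and 0 with quantile normalization. Their direction thus flipped with the scaling. On the deposited scale their shares were 0% higher and 33.3% lower, beside 5.59% and 70.4% of lines with a level over 8.

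Subunits of the proteasome, which degrades ubiquitin-tagged proteins, were more often lower than higher. Of 31 subunits tested, 1 was higher and 21 lower, with a median difference of -0.84 (0 against 28 with median-ratio scaling and 6 against 10 with quantile normalization). The shares were 3.23% and 67.7%, beside 41.2% and 19.0% of all lines. Among the 1003 lines with a level of 6 to 8 they were 12.7% and 53.3%, with a median difference of -0.76. The median level of the list was 7.35 and 7.68 in wild type and 6.46 to 6.67 in the knockouts. In the core particle 13 of 14 were lower with a median of -1.67, against 4 of 6 ATPases of the base and 4 of 11 other regulatory subunits. Psmb6, the caspase-like catalytic subunit, read 9.14 and 9.44 in wild type and 6.35, 6.67, 6.72 and 6.49 in the knockouts, a difference of -2.73 ± 0.27 (adjusted p = 0.00012). Psmb3, a structural subunit of the same ring, read 9.48 and 9.97 in wild type and 6.56, 6.69, 6.88 and 6.81 in the knockouts, a difference of -2.99 ± 0.30 (adjusted p = 0.00013). Psmd8, a lid subunit, fell by 1.30 (adjusted p = 0.00019). The knockout libraries lay below both wild-type libraries in each of the 3.

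Antioxidant genes leaned the same way. Of 30 genes of the NRF2 response 28 were tested, and 5 were higher and 13 lower, with a median difference of -0.74 (3 against 18 with median-ratio scaling and 6 against 10 with quantile normalization). As shares this was 17.9% and 46.4%, beside 41.2% and 19.0% of all lines. Lines with a level of 4 to 6 held 30.4% and 28.5%, and those with 6 to 8 held 12.7% and 53.3%. The list had a median level of 6.27 and 5.83 in wild type and 5.40 to 5.78 in the knockouts. Txn1, thioredoxin, read 10.80 and 11.57 in wild type and 8.13, 8.25, 8.37 and 8.31 in the knockouts, a difference of -2.92 ± 0.35 (adjusted p = 0.00027), and Gpx1, glutathione peroxidase, read 9.42 and 9.89 in wild type and 7.15, 7.27, 7.35 and 7.26 in the knockouts, a difference of -2.40 ± 0.32 (adjusted p = 0.00038). Nfe2l2, which encodes NRF2 itself, was higher at 5.12 and 4.94 in wild type and 7.50, 7.27, 6.47 and 6.49 in the knockouts, a difference of 1.90 ± 0.27 (adjusted p = 0.00053). Cat, catalase, rose by 1.69 ± 0.23 (adjusted p = 0.0004).

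**Figure D3:**
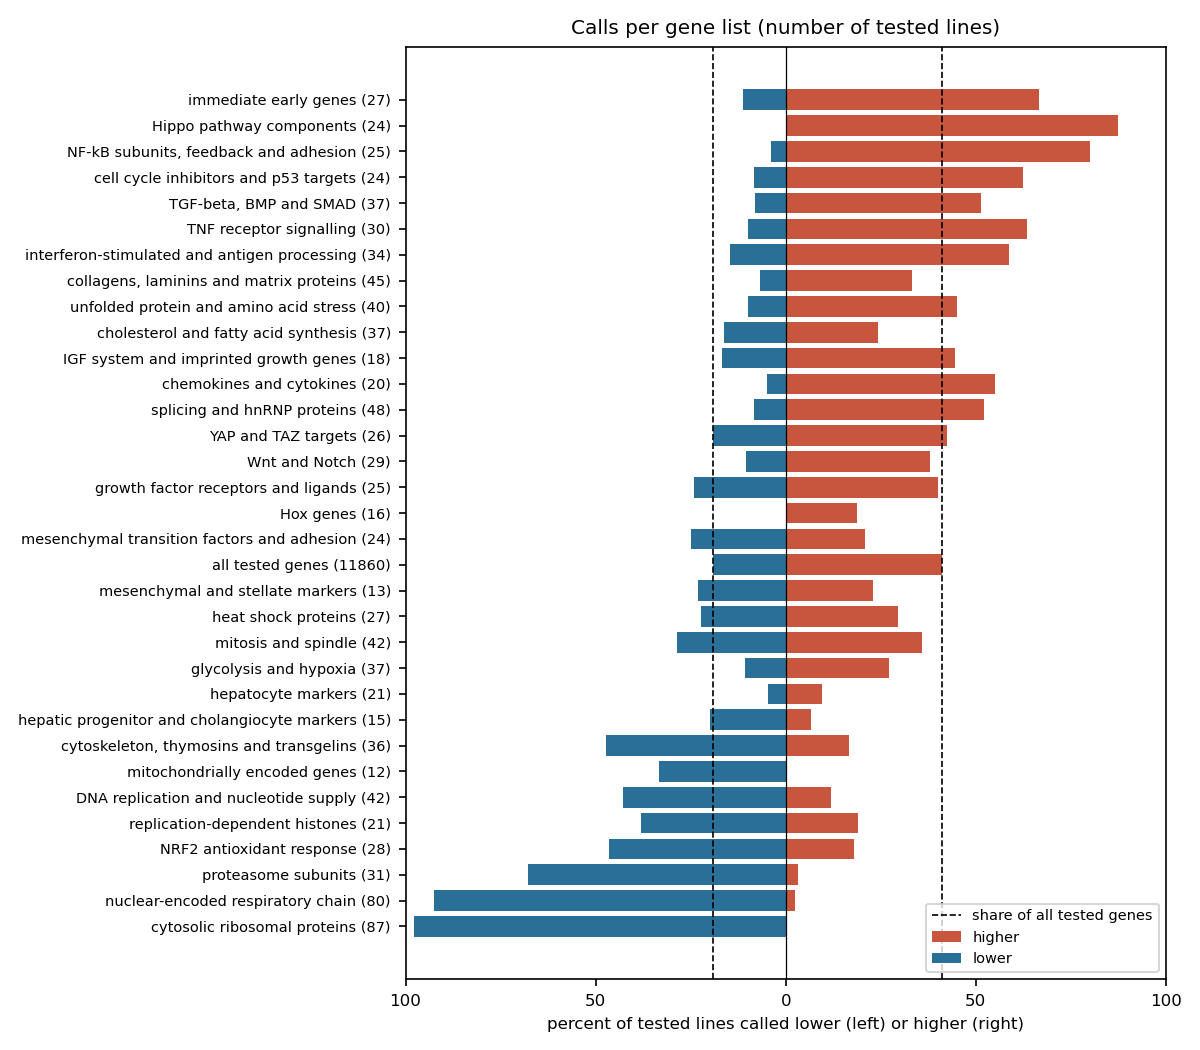
Percent of tested lines called lower (left) or higher (right) in each gene list with at least 10 tested lines, ordered by the median difference, with the number of lines in brackets. Dashed lines mark the shares over all tested lines, 19.0% lower and 41.2% higher. Ribosomal protein, respiratory chain and proteasome lists lie at the lower end and immediate early, Hippo and NF-kB lists at the upper end.

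A set of lines was lower in the 4 untreated knockout libraries than in each of the other 8. In 173 lines the highest of the 4 untreated knockout libraries lay over 2 below the lowest of the other 8 libraries, treated libraries included. They held 0.80% to 0.94% of all FPKM in the untreated knockouts, 23.9% and 28.7% in wild type and 18.9% to 27.6% in the treated libraries. The choice of these lines fixes that the treated libraries are high, so nothing is read from it. Krt7, Sox9, Cdh1, Tap2, Cflar and Nt5e above are members. Of the 15 genes with the lowest differences 14 are described here, and all 14 belong to this set: they read 8.55 to 13.2 in wild type, 0 to 4.57 in the untreated knockouts and 4.97 to 16.6 in the treated libraries.

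Igfbp3, an IGF-binding protein, was listed at 0 in the 4 knockout libraries and read 10.12 and 10.36 in wild type (adjusted p = 2.4e-09). Aaas, a nuclear pore protein, was also listed at 0 in the 4 and read 10.26 and 10.75 in wild type, and A4galt, a glycosyltransferase, was listed at 0 against 9.29 and 9.10. No fold is given where a group is listed at 0. Akr1c3, an aldo-keto reductase of steroid metabolism, read 10.83 and 11.04 in wild type and 0, 0, 0.09 and 0 in the knockouts.

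Others of the set kept a value above 0 in at least 3 knockout libraries. Phf19, a Polycomb accessory protein, read 13.04 and 12.86 in wild type and 2.07, 1.97, 2.66 and 2.60 in the knockouts, a difference of -10.62 ± 0.18 (adjusted p = 2.5e-09). Dgkz, a diacylglycerol kinase, read 12.92 and 12.70 in wild type and 3.56, 3.61, 3.74 and 3.82 in the knockouts, a difference of -9.13 ± 0.14 (adjusted p = 2.4e-09). Clic5, an ion channel protein bound to the cytoskeleton, read 9.58 and 9.65 in wild type and 0.47, 0.85, 0.28 and 0.52 in the knockouts, a difference of -9.09 ± 0.24 (adjusted p = 2.6e-08). Itga2, the collagen-binding integrin alpha 2, read 8.75 and 8.55 in wild type and 0, 0.03, 0.01 and 0.04 in the knockouts, a difference of -8.63 ± 0.28 (adjusted p = 9.3e-08), and Pif1, a DNA helicase, fell by 8.80 (adjusted p = 2.4e-08). Ube2d4, Dhx37 and Dph2, with Pold1 and Ube2c described below, complete the 14. Lmna, lamin A/C of the nuclear lamina and the highest gene of both wild-type libraries, read 15.34 and 15.11 in wild type and 7.41, 7.54, 7.75 and 7.78 in the knockouts, a difference of -7.60 ± 0.22 (adjusted p = 4.2e-08).

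**Figure D4:**
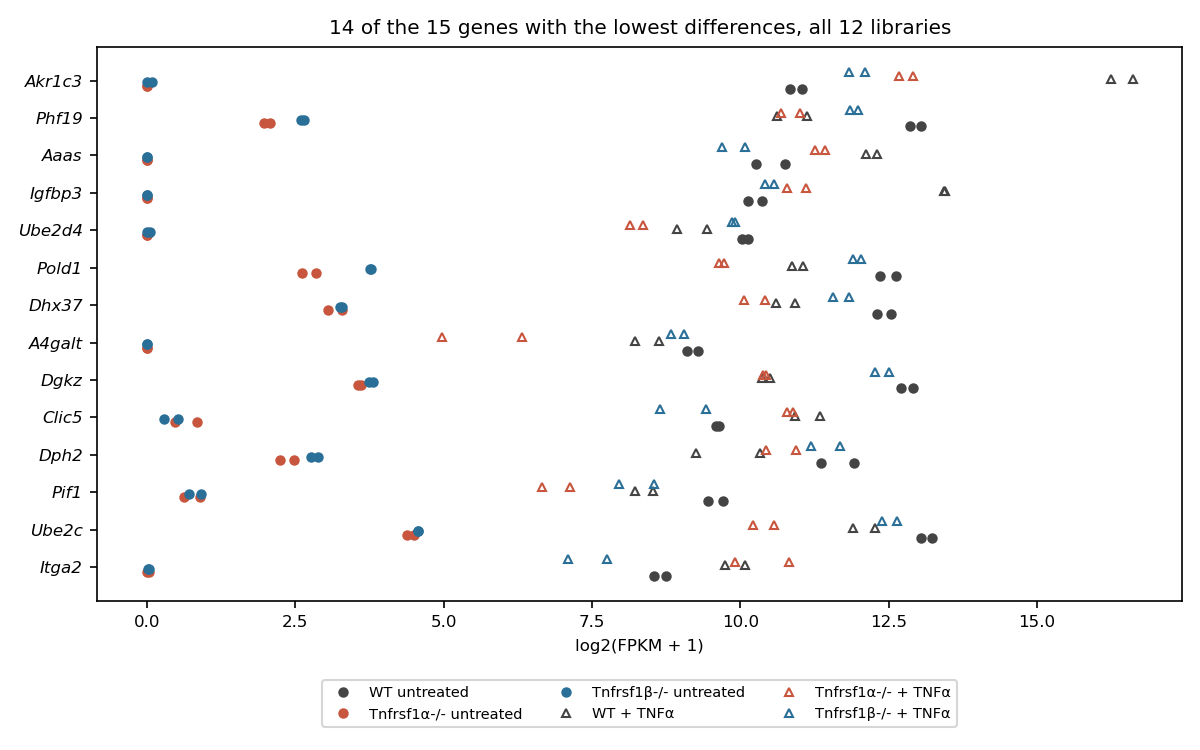
Levels (log2(FPKM + 1), x axis) of 14 of the 15 genes with the lowest differences (y axis) in all 12 libraries. Filled circles are untreated and open triangles treated libraries. The 4 untreated knockout libraries lie at 0 to 4.57, and the other 8 at 4.97 to 16.6.

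DNA replication genes fell in part, led by members of this set. Of 42 tested, 5 were higher and 18 lower, with a median difference of -0.42 (4 against 29 with median-ratio scaling and 5 against 25 with quantile normalization), and 4 of the 18 belong to the 173 lines. As shares this was 11.9% and 42.9%, beside 41.2% and 19.0% of all lines. Lines with a level of 4 to 6 held 30.4% and 28.5%. The list had a median level of 5.01 and 4.81 in wild type and 4.08 to 4.66 in the knockouts. Pold1, the catalytic subunit of DNA polymerase delta, read 12.63 and 12.35 in wild type and 2.61, 2.85, 3.76 and 3.78 in the knockouts, a difference of -9.24 ± 0.15 (adjusted p = 2.5e-09). Pola2, the B subunit of the polymerase alpha-primase complex, read 12.37 and 12.17 in wild type and 4.21, 4.26, 4.68 and 4.74 in the knockouts, a difference of -7.80 ± 0.18 (adjusted p = 1.3e-08). Pola1, the catalytic subunit of the same complex, went the other way with 2.15 and 1.79 in wild type and 3.88, 3.65, 4.10 and 4.03 in the knockouts, a difference of 1.94 ± 0.30 (adjusted p = 0.00075). Rrm1, the large subunit of ribonucleotide reductase, read 11.69 and 11.92 in wild type and 6.09, 5.89, 6.33 and 6.36 in the knockouts, a difference of -5.64 ± 0.20 (adjusted p = 1.9e-07). Dut, which keeps uracil out of DNA, read 11.15 and 11.31 in wild type and 5.72, 5.45, 5.63 and 5.86 in the knockouts, a difference of -5.57 ± 0.16 (adjusted p = 5.0e-08).

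Mitosis genes were split. Of 43 listed 42 were tested, and 15 were higher and 12 lower, with a median difference of 0.14 (12 against 20 with median-ratio scaling and 16 against 14 with quantile normalization). As shares this was 35.7% and 28.6%, beside 41.2% and 19.0% of all lines. Lines with a level of 4 to 6 held 30.4% and 28.5%. The list had a median level of 5.10 and 4.74 in wild type and 4.83 to 5.13 in the knockouts. Ube2c, the ubiquitin-conjugating enzyme of the anaphase-promoting complex, read 13.23 and 13.05 in wild type and 4.39, 4.50, 4.56 and 4.57 in the knockouts, a difference of -8.63 ± 0.18 (adjusted p = 6.1e-09). Top2a, topoisomerase II alpha, read 11.90 and 12.18 in wild type and 6.51, 6.28, 6.58 and 6.65 in the knockouts, a difference of -5.53 ± 0.23 (adjusted p = 5.4e-07). Cdk1, the mitotic kinase, read 8.31 and 8.58 in wild type and 6.89, 6.77, 6.89 and 6.96 in the knockouts, a difference of -1.57 ± 0.15 (adjusted p = 8.6e-05), and its binding partner Cks2 fell by 1.74 (adjusted p = 8.9e-05). Levels in the knockouts lay below those of wild type in these 4 genes.

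Cell cycle inhibitors and p53 targets were mostly higher. Of 30 listed genes 24 were tested, and 15 were higher and 2 lower, with a median difference of 1.34 (12 against 7 with median-ratio scaling and 14 against 3 with quantile normalization). Cdkn1b, the inhibitor p27, read 4.11 and 3.96 in wild type and 6.14, 5.79, 5.77 and 5.89 in the knockouts, a difference of 1.86 ± 0.23 (adjusted p = 0.00028). Rb1, the retinoblastoma protein, read 1.19 and 0.14 in wild type and 3.34, 3.02, 2.98 and 3.10 in the knockouts, a difference of 2.45 ± 0.34 (adjusted p = 0.00052), and its relative Rbl2 rose by 1.68 ± 0.22 (adjusted p = 0.0004). Tp53inp1, a p53-induced nuclear protein, rose by 2.81 ± 0.26 (adjusted p = 9.0e-05). Bax, the death effector that p53 induces, fell, reading 6.53 and 6.93 in wild type and 5.09, 5.22, 5.13 and 5.16 in the knockouts, a difference of -1.58 ± 0.23 (adjusted p = 0.00062).

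Matrix genes were called higher in 33.3% of tested lines and lower in 6.67%, beside 41.2% and 19.0% of all lines; after quantile normalization 48.9% were higher beside 30.7% of all lines. Of 55 listed genes 45 were tested, and 15 were higher and 3 lower, with a median difference of 0.93 (12 against 4 with median-ratio scaling and 22 against 2 with quantile normalization). Among 15 tested collagens 9 were higher and 0 lower. Col5a2, a fibrillar collagen chain, read 7.08 and 5.88 in wild type and 8.53, 8.54, 8.42 and 8.50 in the knockouts, a difference of 2.02 ± 0.35 (adjusted p = 0.0014). Lama5, a laminin chain of basement membranes, read 3.65 and 2.81 in wild type and 5.79, 6.11, 6.99 and 6.98 in the knockouts, a difference of 3.24 ± 0.41 (adjusted p = 0.00033), and Lamb2, a laminin beta chain, rose by 2.0 ± 0.25 (adjusted p = 0.00029). Nid2, which links laminin to collagen IV, rose by 2.14 ± 0.40 (adjusted p = 0.002). Plod2, the lysyl hydroxylase of collagen telopeptides, fell to 7.62, 7.36, 6.93 and 6.99 from 8.98 and 8.95, a difference of -1.74 ± 0.28 (adjusted p = 0.00091), or -0.58 (adjusted p = 0.11) after quantile normalization.

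Adhesion genes and transition factors did not share a direction. Of 24 tested, 5 were higher and 6 lower, with a median difference of 0.53 (5 against 6 with median-ratio scaling and 8 against 5 with quantile normalization). As shares this was 20.8% and 25%, beside 41.2% and 19.0% of all lines. Zeb1 and Zeb2, paralogous repressors of E-cadherin, moved oppositely. Zeb1 read 7.65 and 8.22 in wild type and 4.56, 4.59, 4.64 and 4.66 in the knockouts, a difference of -3.33 ± 0.29 (adjusted p = 6.8e-05), and Zeb2 read 1.21 and 0.58 in wild type and 3.58, 3.66, 3.35 and 3.35 in the knockouts, a difference of 2.59 ± 0.37 (adjusted p = 0.00054). Cdh2, N-cadherin, read 9.44 and 9.69 in wild type and 5.31, 5.25, 5.58 and 5.55 in the knockouts, a difference of -4.15 ± 0.16 (adjusted p = 2.6e-07). Itga6, the laminin-binding integrin alpha 6, read 9.73 and 10.10 in wild type and 4.0, 3.85, 3.66 and 3.78 in the knockouts, a difference of -6.09 ± 0.24 (adjusted p = 3.5e-07).

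The count of cytoskeletal genes depended on the scale. Of 40 listed genes 36 were tested, and 6 were higher and 17 lower, with a median difference of -0.33 (2 against 19 with median-ratio scaling and 20 against 5 with quantile normalization), so the direction flipped under the latter. As shares this was 16.7% and 47.2%, beside 41.2% and 19.0% of all lines. Lines with a level of 6 to 8 held 12.7% and 53.3%. The list had a median level of 8.16 and 7.73 in wild type and 7.47 to 7.77 in the knockouts. Tmsb4x, thymosin beta 4, which binds actin monomers, read 13.14 and 13.89 in wild type and 10.52, 10.24, 10.40 and 10.32 in the knockouts, a difference of -3.14 ± 0.34 (adjusted p = 0.00017) that was -1.0 after quantile normalization. Tmsb10, thymosin beta 10, fell by 3.89 (adjusted p = 2.7e-05). Actb, beta-actin, read 12.54 and 11.70 in wild type and 10.64, 11, 11.56 and 11.45 in the knockouts, a difference of -0.96 ± 0.25 (adjusted p = 0.0091) that became 1.40 (adjusted p = 0.0046) after quantile normalization and -0.54 (adjusted p = 0.067) without wild-type replicate 1.

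Genes of the TGF-beta and BMP pathways, which signal through receptor kinases and SMAD proteins, held 51.4% higher and 8.11% lower lines, beside 41.2% and 19.0% of all lines. These shares were close to those of lines with a level of 2 to 4, 53.9% and 9.38%. The median level of the list was 3.40 and 2.88 in wild type and 4.39 to 4.60 in the knockouts. Of 42 listed genes 37 were tested, and 19 were higher and 3 lower, with a median difference of 1.14 (17 against 5 with median-ratio scaling and 19 against 4 with quantile normalization). Smad3, which TGF-beta receptors phosphorylate, read 3.01 and 2.30 in wild type and 4.86, 4.84, 4.93 and 4.94 in the knockouts, a difference of 2.24 ± 0.24 (adjusted p = 0.00017). Smad4, the shared partner, rose by 2.36 ± 0.35 (adjusted p = 0.0007), Tgfbr1, a TGF-beta receptor kinase, by 2.14 ± 0.33 (adjusted p = 0.00074) and Skil, a repressor of SMADs, by 3.78 ± 0.53 (adjusted p = 0.00049).

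Growth factor and Wnt genes included large differences in both directions. Of 36 growth factor receptors and ligands 25 were tested, and 10 were higher and 6 lower, with a median difference of 0.69 (8 against 6 with median-ratio scaling and 6 against 6 with quantile normalization). The shares, 40% and 24%, were close to the 41.2% and 19.0% of all lines. Met, the receptor for hepatocyte growth factor, read 10.85 and 10.88 in wild type and 4.29, 4.25, 4.45 and 4.42 in the knockouts, a difference of -6.52 ± 0.19 (adjusted p = 5.4e-08). Bdnf, a neurotrophin, read 6.04 and 6.51 in wild type and 2.64, 2.49, 2.13 and 2.25 in the knockouts, a difference of -3.90 ± 0.19 (adjusted p = 1.4e-06), and Il6st, the shared receptor gp130 of IL-6 family cytokines, read 9.75 and 10.07 in wild type and 6.70, 6.76, 6.71 and 6.77 in the knockouts, a difference of -3.17 ± 0.26 (adjusted p = 4.7e-05). Kitlg, stem cell factor, rose to 5.18, 4.85, 4.88 and 4.89 from 2.03 and 1.66, a difference of 3.11 ± 0.34 (adjusted p = 0.00017). In the Wnt and Notch list 29 of 47 genes were tested, and 11 were higher and 3 lower, with a median difference of 0.70 (10 against 4 with median-ratio scaling and 7 against 6 with quantile normalization). Its shares were 37.9% and 10.3%, beside the same 41.2% and 19.0%. Wnt5a, a non-canonical Wnt ligand, read 8.61 and 8.53 in wild type and 0.87, 0.81, 0.74 and 0.60 in the knockouts, a difference of -7.82 ± 0.22 (adjusted p = 4.0e-08). Hes1, the Notch effector, read 3.96 and 4.11 in wild type and 5.85, 5.71, 7.31 and 7.37 in the knockouts, a difference of 2.52 ± 0.20 (adjusted p = 4.0e-05), and Lrp6, the Wnt co-receptor, rose by 2.48 ± 0.36 (adjusted p = 0.00057).

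In the IGF system the shares, 44.4% higher and 16.7% lower, were close to those of all lines. Of 31 listed genes 18 were tested, and 8 were higher and 3 lower, with a median difference of 0.84 (6 against 3 with median-ratio scaling and 6 against 3 with quantile normalization). Igf2bp2 and Igf2bp3, paralogous RNA-binding proteins of fetal tissue, moved oppositely, the former with 8.23 and 8.13 in wild type and 2.14, 2.23, 1.77 and 1.67 in the knockouts, a difference of -6.23 ± 0.14 (adjusted p = 1.3e-08), and the latter with 0.99 and 0.46 in wild type and 2.94, 2.87, 3.09 and 3.17 in the knockouts, a difference of 2.29 ± 0.31 (adjusted p = 0.00044). Irs1, the docking protein of the IGF1 and insulin receptors, rose by 1.94 ± 0.21 (adjusted p = 0.00017).

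Stress and metabolic lists held changes in both directions. On the deposited scale 41.2% of all lines were higher and 19.0% lower. The shares were 45% and 10% for unfolded protein and amino acid stress, near the former figure. They were 27.0% and 10.8% for glycolysis and hypoxia and 24.3% and 16.2% for cholesterol and fatty acid synthesis. For heat shock proteins they were 29.6% and 22.2%. Of 40 genes of the unfolded protein and amino acid stress responses, 18 were higher and 4 lower, with a median difference of 0.88 (10 against 9 with median-ratio scaling and 28 against 4 with quantile normalization). Ern1, the sensor IRE1, rose by 2.27 ± 0.25 (adjusted p = 0.00019) and Eif2ak3, the sensor PERK, by 1.91 ± 0.26 (adjusted p = 0.00044), while Hsp90b1, the chaperone GRP94, read 12.74 and 12.72 in wild type and 9.18, 9.0, 9.14 and 9.20 in the knockouts, a difference of -3.60 ± 0.25 (adjusted p = 1.7e-05). Of 37 tested glycolysis and hypoxia genes, 10 were higher and 4 lower, with a median difference of 0.05 (7 against 8 with median-ratio scaling and 13 against 3 with quantile normalization). Hif1a read 3.78 and 2.53 in wild type and 6.10, 5.95, 5.21 and 5.31 in the knockouts, a difference of 2.49 ± 0.39 (adjusted p = 0.0008), and its target Vegfa read 3.71 and 2.17 in wild type and 6.79, 6.81, 5.46 and 5.56 in the knockouts, a difference of 3.22 ± 0.49 (adjusted p = 0.00075). Of 37 tested cholesterol and fatty acid synthesis genes, 9 were higher and 6 lower, with a median difference of 0.87 (6 against 8 with median-ratio scaling and 9 against 8 with quantile normalization). Insig1, which holds back sterol synthesis, rose by 2.30 ± 0.21 (adjusted p = 7.3e-05), and Elovl6, a fatty acid elongase, read 6.33 and 5.88 in wild type and 2.17, 2.06, 2.74 and 2.67 in the knockouts, a difference of -3.69 ± 0.22 (adjusted p = 5.8e-06). Among 27 tested lines of heat shock proteins, 8 were higher and 6 lower, with a median difference of 0.23 (5 against 11 with median-ratio scaling and 14 against 4 with quantile normalization).

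The 15 named genes with the highest differences were Elovl5, Cnn3, Fos, Cyr61, Slfn13, Slfn4, Flrt2, C3, Abi3bp, Lrrc8c, Gpc3, Fosb, Chst4, Cmtm7 and Lbp, and 4 of them were listed at 0 in both wild-type libraries. Elovl5, an elongase of polyunsaturated fatty acids, was listed at 0 in wild type and read 6.13, 6.26, 6.40 and 6.43 in the knockouts (adjusted p = 1.0e-06). Slfn13, a Schlafen family RNase, was listed at 0 and read 4.99, 4.66, 5.34 and 5.32 (adjusted p = 2.0e-06), and Lrrc8c, a volume-regulated anion channel subunit, was listed at 0 and read 4.51, 4.51, 4.40 and 4.36 (adjusted p = 1.2e-06). Cmtm7 was listed at 0 and read 3.95, 4.16, 4.31 and 4.26 (adjusted p = 7.1e-06). Across all tested lines, 41 were listed at 0 in both wild-type libraries with values above 1 in the 4 knockouts, and 22 the other way round.

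Several of the highest genes were measurable in both groups. Cnn3, an actin-binding calponin, read 3.40 and 2.77 in wild type and 9.40, 9.48, 8.93 and 8.92 in the knockouts, a difference of 6.10 ± 0.53 (adjusted p = 6.5e-05). Slfn4, an interferon-induced Schlafen gene, read 2.23 and 2.35 in wild type and 7.63, 7.36, 7.10 and 7.16 in the knockouts, a difference of 5.02 ± 0.64 (adjusted p = 0.00034). C3, the central complement protein, read 3.46 and 2.97 in wild type and 8.06, 8.23, 8.04 and 8.04 in the knockouts, a difference of 4.88 ± 1.26 (adjusted p = 0.0093), or 4.63 (adjusted p = 0.071) without wild-type replicate 2. Lbp, the lipopolysaccharide-binding protein of the acute phase, read 0.71 and 0.70 in wild type and 4.84, 5.08, 4.62 and 4.54 in the knockouts, a difference of 4.07 ± 0.76 (adjusted p = 0.0019). Gpc3, a glypican of fetal liver, read 2.29 and 2.01 in wild type and 6.72, 6.69, 6.42 and 6.36 in the knockouts, a difference of 4.40 ± 1.37 (adjusted p = 0.022), or 4.54 (adjusted p = 0.078) and 4.25 (adjusted p = 0.11) without either wild-type library. Abi3bp, an extracellular matrix protein, read 0.69 and 0.09 in wild type and 5.65, 5.64, 4.59 and 4.60 in the knockouts, a difference of 4.73 ± 0.46 (adjusted p = 0.00011), and Chst4, a sulfotransferase, rose by 4.19 ± 0.72 (adjusted p = 0.0013). Flrt2, an adhesion protein, was listed at 0 in wild-type replicate 1 and at 2.58 in replicate 2, and read 6.33, 6.42, 6.07 and 6.06 in the knockouts.

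MicroRNA lines give the reads over a microRNA locus, and in a library of total RNA made with this kit they do not measure the mature arms. Of 18 tested lines 10 were higher and 1 lower, with a median of 1.18 (9 against 2 with median-ratio scaling and 8 against 3 with quantile normalization). As shares this was 55.6% and 5.56%, beside 41.2% and 19.0% of all lines. Lines with a level under 2 held 46.2% and 5.81%. The mature products of 4 loci that rose and the 1 that fell, from RefSeq on GRCr8, are printed 5′ to 3′ with the seed (bases 2 to 8) in capitals, with the coordinates of the arm. The seeds differ from each other.
rno-miR-27b-3p, chr17:1819163-1819183, minus strand: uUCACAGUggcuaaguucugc
rno-miR-23b-3p, chr17:1819405-1819425, minus strand: aUCACAUUgccagggauuacc
rno-miR-22-3p, chr10:60805387-60805408, plus strand: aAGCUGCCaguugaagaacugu
rno-miR-186-5p, chr2:249241664-249241685, plus strand: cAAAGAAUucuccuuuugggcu
rno-let-7i-5p, chr7:60527935-60527956, minus strand: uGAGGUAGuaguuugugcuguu

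Mir27b read 0 and 0.90 in wild type and 3.43, 3.27, 2.90 and 2.86 in the knockouts, a difference of 2.67 ± 0.26 (adjusted p = 0.00011). Mir23b, a neighbour of the same cluster, was listed at 0 in wild type and read 1.29, 2.18, 2.30 and 2.55 in the knockouts (adjusted p = 0.00067). Mir22 read 0.97 and 0 in wild type and 2.04, 2.47, 2.98 and 3.11 in the knockouts, a difference of 2.16 ± 0.36 (adjusted p = 0.0012), and Mir186 was listed at 0 in wild type and read 2.25, 2.14, 1.33 and 2.14 (adjusted p = 0.00019). These 4 loci lay higher in each knockout library than in either wild-type library. Mirlet7i fell, reading 2.12 and 1.19 in wild type and 0.64, 0.91, 0.27 and 0.25 in the knockouts, a difference of -1.14 ± 0.31 (adjusted p = 0.012), or -0.67 (adjusted p = 0.12) without wild-type replicate 1. Whether counting used strand is not given in the sources used here, so reads of a host or antisense transcript cannot be told apart from those of the locus.

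The 4 knockout libraries resembled one another more than either wild-type library. Spearman correlations across genes, which are not independent replicates, were 0.97 to 0.98 between libraries of the 2 knockout labels and 0.72 to 0.82 between knockout and wild-type libraries. The median absolute difference between the 2 label means was 0.20, against 0.99 between knockouts and wild type. In all, 128 lines differed by over 1 between the labels and 5880 between knockouts and wild type. In the fit of 12 libraries 4 lines (0.0337%) differed between the labels, among them Med22 and 2 with placeholder symbols. A fit of only the 4 knockout libraries called 948 (7.99%) higher and 946 (7.98%) lower under the Tnfrsf1α-/- label.

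Med22, a Mediator subunit, read 2.0, 2.17, 0 and 0 in the knockouts and was listed at 0 in wild type and under the Tnfrsf1β-/- label (adjusted p = 0.00047 between labels).

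**Figure D5:**
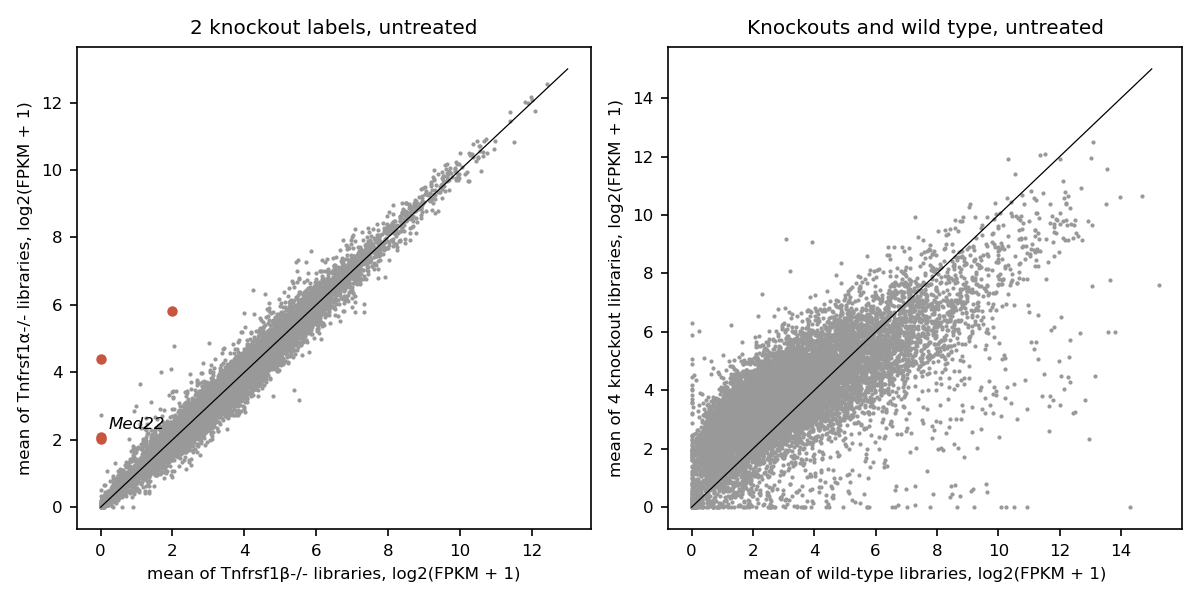
Mean levels (log2(FPKM + 1)) of each tested line under the 2 knockout labels (left, red where the labels differed in the fit of 12 libraries) and in the knockouts and wild type (right). Black lines mark equal levels. Lines over 1 from equality number 128 on the left and 5880 on the right.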

How the data were processed

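The deposited table holds 1 value per gene and library. Per the file name and the range of its values, these are log2(FPKM + 1) values computed by the authors. The aligner, quantification tool, annotation, genome build and any scaling between libraries were not given in the sources used here. Counts were not used here, so depth is unknown and no counting error can be given. A further 346 lines with no symbol were left out. The table has 0 columns outside the 12 libraries.

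Lines with a mean of at least 1 FPKM over 12 libraries (11860) were fitted with limma 3.58.1 in R 4.3.3, with 6 group means and an intensity trend. The contrast was the mean of both untreated knockout groups minus untreated wild type, two-sided, with Benjamini-Hochberg adjustment and a threshold of 0.05. On simulated data of the same size the fit called 29 of 100 lines changed by 2-fold and 90 of 100 changed by 8-fold, with 4 unchanged lines called. All other lines were left unchanged there, whereas 60.2% of lines were called in the real data. The Benjamini-Hochberg cut-off depends on the share of changed lines, so these rates describe the simulation and not this comparison.

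The members and the 38 gene lists were chosen with earlier results of these data known, so lists are described by counts and medians and not tested. Named genes are the 15 highest and lowest differences, the 10 smallest p-values in each direction, the 10 highest levels per group, the largest differences between labels and up to 6 members of each list by p, besides Tnfrsf1a, Tnfrsf1b, Yap1, Wwtr1 and Hnrnpk. Members that complete a family or complex, or whose promoter holds a printed motif, were added after their values were seen. Promoter and microRNA sequences are from RefSeq tables of build GRCr8, matched by symbol. Alternatives were median-ratio scaling, quantile normalization, pseudocounts of 0.1 and 5, other filters on low values, other libraries in the fit, a replicate block and each library left out. A few genes that the rule names are not reported here. The set of 173 lines and the fit of 4 libraries were added after seeing the data.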

Additional observations from a re-analysis of the deposited data

Results flagged for a closer look

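A single library stood apart from the other 3 of the 4 untreated knockout libraries in 13 of 178 values looked at, and chance alone flags about 1 in 20. The gap of that library to its neighbour, relative to the range, exceeded Dixon's critical value for 4 libraries. C3 at 8.23, Kitlg at 5.18, Lamb2 at 5.49, Nfkbiz at 5.81, Taok1 at 5.67 and Mir186 at 1.33 were the values of the library apart. For each of these 6 genes that library still lay above both wild-type libraries. In 6 genes the library apart lay close to 0 with the other 3 at 0 or nearer to it: Akr1c3 at 0.090, Krt19 at 0.055, Tnfrsf1b at 0.027, Tnnt2 at 0.065, Ttr at 0.11 and Ube2d4 at 0.054. The number of lines above 0 was 14796 in the library that stood apart.

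The labels differed from each other for Med22, by 2.08, in the fit of 12 libraries.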

How the results depend on the processing

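The count of higher lines, 4882, moved to 3144 with a filter of mean FPKM at least 5, which tests fewer lines, and ranged from 3131 to 4874 with each library left out. The count of lower lines ranged from 1776 to 1999 with each library left out and stayed within 1.5 times of 2255 under the other alternatives run. The 4 lines that differed between the knockout labels became 17 with only the 6 untreated libraries, 58 without the treated Tnfrsf1α-/- libraries, 17 after quantile normalization, 47 with no filter, 1 with mean FPKM at least 5, 1 with lines above 0 in the 6 untreated libraries and 1894 with only the 4 knockout libraries. The cause was not tested. Of 162 named genes past the threshold, 137 kept direction and call under each alternative that gave them a value. Without wild-type replicate 2, 15 lost the call, and without replicate 1, 7 did. Direction reversed after quantile normalization for Actb (1.40), Egr1 (0.0073), Jund (0.21), Ifi27 (0.55), Isg15 (0.66) and Vim (1.15), after median-ratio scaling for Ctgf (-0.21) and Hnrnpk (-0.10), and for the Tnfrsf1β-/- label alone for Hnrnpk (-0.15). Same-numbered replicates shared only a number: their deviations correlated at -0.057, -0.075 and -0.169. A replicate block gave 4981 higher and 2256 lower lines, and under it Isg15 lost its call (adjusted p = 0.055). With 2 libraries a group and no counts, small differences and low genes are limited most.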
